A study of Mus musculus with 3 samples.

Results

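The cells described here are the Ccl4-high NK cells of mouse lung and blood, that is, cells with Ccl4 at 3000 CPM or more (counts per 1000000 gene counts of the cell) and at least 1 Ccl3 count. They numbered 1836 of 21113 kept cells, and the other 19277 kept cells were their comparison. It was made within the same library and tissue, except for cells near the cut, where libraries were pooled. Because Ccl4 and Ccl3 chose the cells, their values are a description, and both genes were left out of every count of genes.

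Wild-type female mice aged 9 weeks gave the lungs and the blood, from which live cells positive for NK1.1 and NKp46 had been sorted. These were tagged with 1 hashtag antibody for each tissue and sequenced as 3 droplet libraries. The naive library came from mice without tumor cells. The 6 h and 14 days libraries came from mice that had received 100000 PyMT cells, a mouse mammary tumor line, into a vein that long before they were sacrificed. Each condition was 1 library from several mice, whose cells carry no label of their own in the files, so no test between conditions was possible. All intervals below are exact 95% intervals unless named otherwise, cover counting error only, and are too narrow where few cells hold most of the counts. Lungs were digested with enzymes and blood was not, so tissue and preparation cannot be told apart. Kept cells of a library and tissue held 16936900 (14 days blood) to 35922700 (6 h lung) UMIs, the unique molecular identifiers that count captured transcripts. At most 16 barcodes of kept cells were shared between any 2 libraries, and 1 barcode was Ccl4-high in both the naive and the 14 days library.

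CCL3 and CCL4 are small secreted chemokines that attract monocytes, T cells and other NK cells. NK cells release them soon after an activating receptor or a cytokine receptor is engaged, together with XCL1, which attracts cross-presenting dendritic cells, and interferon-γ, which activates macrophages. The signals run through calcium and NFAT, through MAP kinases to the immediate early genes of the AP-1, EGR and NR4A families, and through NF-κB, whose inhibitors are among its own targets. NR4A1 is a nuclear receptor whose transcript is often read as a trace of recent receptor signalling.

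Ccl4 (chr11:83662584-83664683, plus strand, GRCm38.p6) and Ccl3 (chr11:83647844-83649355, minus strand) are neighbours, Ifng lies at chr10:118441046-118445892 and Nr4a1 at chr15:101254269-101274795, both on the plus strand. The 250 bases before the RefSeq start are shown for the 3 of these 4 marker genes with an entry, so that the upstream letters of genes that were high in the same cells can be set side by side. Capitals mark TGACG, the half-site bound by CREB and ATF factors, and GGAAA, the core bound by NFAT. Both strands were searched, so CGTCA and TTTCC mark matches on the other strand. The windows run 5′ to 3′ on the strand of the gene, at chr11:83649379-83649628 (minus), chr10:118440796-118441045 (plus) and chr15:101266596-101266845 (plus) of GRCm38.p6. The Nr4a1 window lies inside the annotated gene, before the start of a shorter transcript.
Ccl3: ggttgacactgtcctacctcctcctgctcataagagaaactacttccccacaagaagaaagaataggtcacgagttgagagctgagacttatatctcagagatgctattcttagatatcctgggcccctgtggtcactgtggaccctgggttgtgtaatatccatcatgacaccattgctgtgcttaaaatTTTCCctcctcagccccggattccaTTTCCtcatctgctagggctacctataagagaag
Ifng: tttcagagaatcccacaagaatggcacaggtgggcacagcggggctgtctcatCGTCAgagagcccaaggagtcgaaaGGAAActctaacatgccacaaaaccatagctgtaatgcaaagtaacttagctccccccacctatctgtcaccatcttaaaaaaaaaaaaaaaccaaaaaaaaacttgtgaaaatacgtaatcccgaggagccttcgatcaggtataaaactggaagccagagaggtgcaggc
Nr4a1: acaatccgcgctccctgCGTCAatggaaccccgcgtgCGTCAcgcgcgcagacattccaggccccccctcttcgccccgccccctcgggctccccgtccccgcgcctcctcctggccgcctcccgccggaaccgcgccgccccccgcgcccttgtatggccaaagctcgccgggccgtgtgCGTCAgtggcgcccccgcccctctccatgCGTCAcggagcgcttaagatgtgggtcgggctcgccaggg

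Ccl3 held 2 GGAAA cores and no TGACG, Ifng held 1 of each, and Nr4a1 held 4 TGACG half-sites and no GGAAA. Of the 55 genes that were higher in Ccl4-high cells, described below, 44 had a window. TGACG stood in the windows of 18 of them (40.9%), against 19.8% of all 27025 genes with a window. GGAAA stood in 30 (68.2%) against 58.8%. The AP-1 site TGANTCA was found in 6 (13.6%) against 7.82%, and the NF-κB consensus in 9 (20.5%) against 8.23%. These matches describe the letters and were given no test.

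The marker genes that the rule did not use, Ifng and Nr4a1, were higher in Ccl4-high cells of every library and tissue. Ifng stood at 323, 332 and 409 CPM (counts summed over cells) in Ccl4-high cells of naive, 6 h and 14 days lung, and at 354, 344 and 266 CPM in those of blood. The other cells held 95.8, 104 and 89.4 CPM in lung and 59.9, 62.3 and 51.8 CPM in blood, so the groups did not overlap. The log2 ratio lay between 1.68 in 6 h lung and 2.56 in naive blood. Nr4a1 stood at 462, 411 and 326 CPM in Ccl4-high cells of lung and at 397, 373 and 359 CPM in those of blood. Its level in other cells differed by tissue, at 173, 153 and 104.5 CPM in lung but 16.3, 13.9 and 8.90 CPM in blood. The log2 ratios of Nr4a1 were accordingly 1.42, 1.42 and 1.64 in lung and 4.61, 4.75 and 5.33 in blood.

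The genes of the rule had the following values. Ccl4 summed to 6714, 8043 and 8504 CPM in Ccl4-high cells of lung and to 12867, 13554 and 14340 CPM in those of blood, against 731, 751 and 502 CPM and 367, 382 and 355 CPM in the other cells. Ccl3 summed to 1222, 1232 and 2130 CPM in lung and to 2305, 2072 and 2196 CPM in blood. A median Ccl4-high cell carried 34 (naive lung) to 72 (14 days blood) Ccl4 UMIs but 3 to 8 Ccl3 UMIs, so the Ccl4 condition rested on many molecules and the Ccl3 condition on few. Free RNA, measured in barcodes with at most 100 counts, held Ccl4 at 1862, 1835 and 1318 CPM in the naive, 6 h and 14 days libraries, all below the cut of 3000. Ifng in free RNA stood at 166, 191 and 159 CPM, between the other cells and the Ccl4-high cells.

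**Figure D1:**
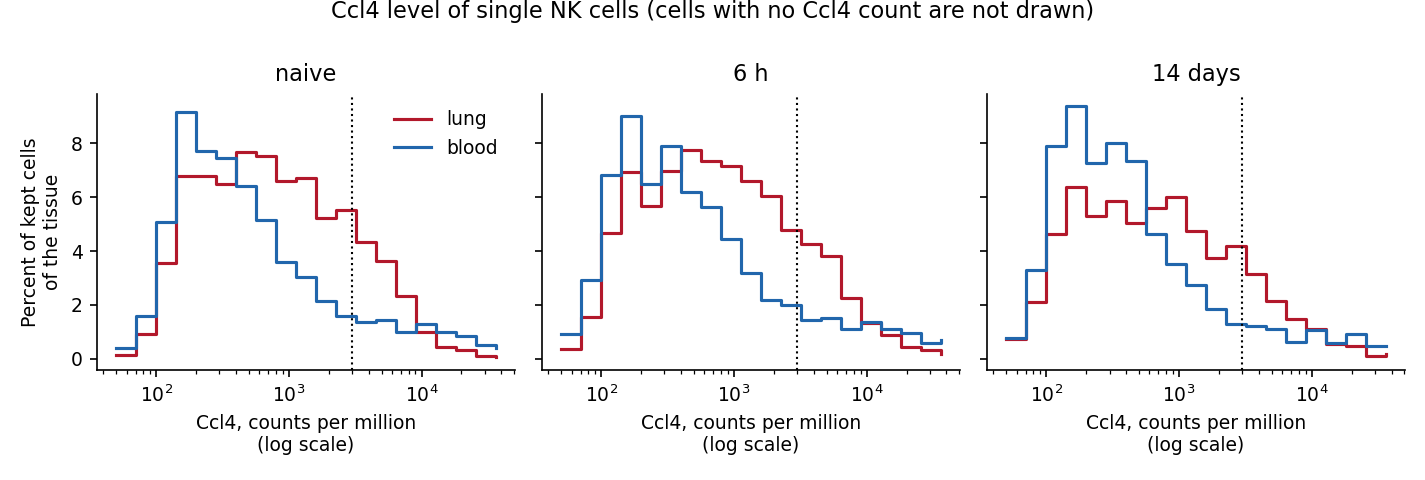
Distribution of Ccl4 over single kept cells of lung (red) and blood (blue) in each library, as percent of the kept cells of the tissue per step, with Ccl4 in CPM of the cell on a log axis and the cut of 3000 as a dotted line; cells without Ccl4 are not drawn and the last step holds all higher cells. Among Ccl4-high cells the median Ccl4 level was 5499 to 5639 CPM in lung and 9616 to 9745 CPM in blood.

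The tissues differed more in the shape of the Ccl4 distribution than in the number of cells past the cut. Ccl4-high cells made up 356 of 3676 naive lung cells (9.68%, 8.75 to 10.7), 515 of 4680 at 6 h (11%, 10.1 to 11.9) and 289 of 3575 at 14 days (8.08%, 7.21 to 9.03). In blood they made up 316 of 4367 naive cells (7.24%, 6.49 to 8.04), 234 of 2746 at 6 h (8.52%, 7.50 to 9.63) and 126 of 2069 at 14 days (6.09%, 5.10 to 7.21). The share in lung was 1.34-fold (1.16 to 1.55), 1.29-fold (1.11 to 1.496) and 1.33-fold (1.08 to 1.62) that in blood of the same library, by log-normal intervals. This excess depended on the cut. With Ccl4 at 5000 CPM or more the log2 ratio of lung over blood was -0.039, 0.023 and 0.062 in the 3 libraries, and without the Ccl3 condition it was 0.71, 0.63 and 0.55.

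At the top of the scale the order of the tissues was the opposite. Cells with Ccl4 over 12000 CPM were 1.06% (0.755 to 1.45), 2.01% (1.63 to 2.45) and 1.40% (1.04 to 1.84) of naive, 6 h and 14 days lung cells. In blood they were 2.86% (2.39 to 3.401), 3.53% (2.87 to 4.29) and 2.61% (1.97 to 3.39), and the intervals of the tissues did not overlap in any library. Between 3000 and 6000 CPM lay 8.54%, 8.42% and 5.85% of lung cells against 2.79%, 3.17% and 2.56% of blood cells. Ccl4-high cells held 49.2%, 55.2% and 58.5% of the Ccl4 UMIs of lung and 73.8%, 76.0% and 71.5% of those of blood.

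Between conditions the shares differed little. At 6 h the share was 1.14-fold that of the naive library in lung (1.00 to 1.29) and 1.18-fold in blood (1.00 to 1.38). At 14 days it was 0.835-fold in lung (0.720 to 0.968) and 0.842-fold in blood (0.689 to 1.03). Both tissues had their highest share in the 6 h library and their lowest in the 14 days library, and the spread between mice behind these ratios is unknown.

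**Figure D2:**
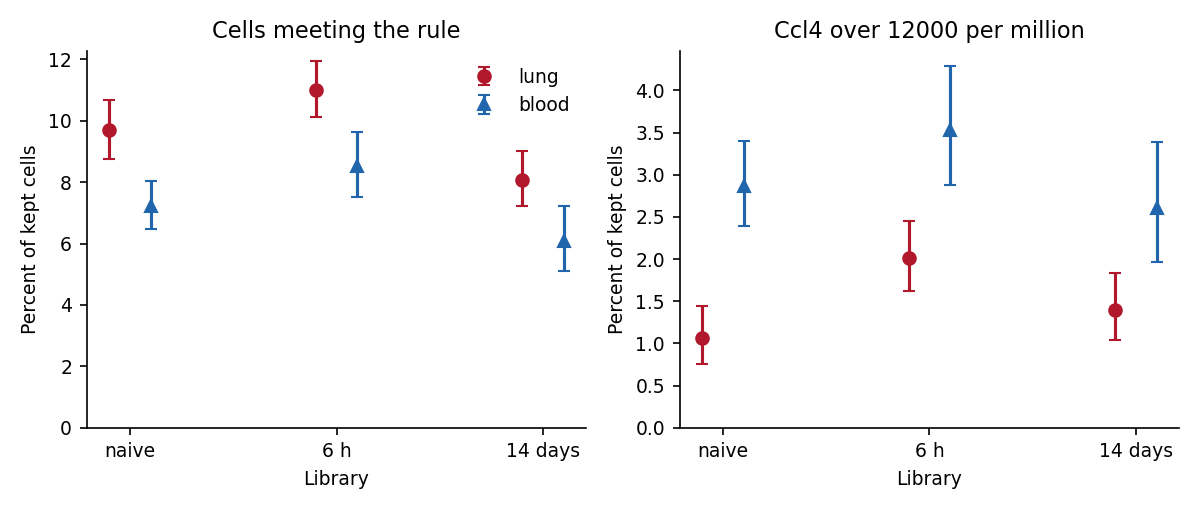
Percent of kept cells that met the rule (left) and that had Ccl4 over 12000 CPM (right) in each library, for lung (red circles) and blood (blue triangles), with exact 95% intervals as bars. Lung lies above blood on the left (8.08% to 11% against 6.09% to 8.52%) and below blood on the right (1.06% to 2.01% against 2.61% to 3.53%).

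Few genes separated Ccl4-high cells from the other cells in every library and tissue, and genes of the immediate early and NF-κB lists were prominent among those higher. A gene was called when its log2 ratio of Ccl4-high over other cells was at least 0.5 in size with the same sign in all 6 combinations of library and tissue. Of 6264 genes with a mean of at least 20 CPM, 55 were called higher (0.878%) and 15 lower (0.239%). The 15 with the largest ratios, ranked by the smallest of their 6 values, were Egr3, Egr2, Gadd45b, Xcl1, Ifng, Nfkbid, Nr4a1, Egr1, Bcl2a1b, Nr4a3, Phlda1, Bcl2a1d, Rel, Icam1 and Trac. The mean for the 20 CPM filter ran over Ccl4-high and other cells together, so a gene could pass through either group alone. Egr3, Egr2, Tnfsf14 and Trac, under 20 CPM in other cells of every combination, were among those that passed only through Ccl4-high cells. The median log2 ratio over all genes tested was -0.06. The cells were chosen by genes of the same contrast, so it is a description with no p-value.

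**Figure D3:**
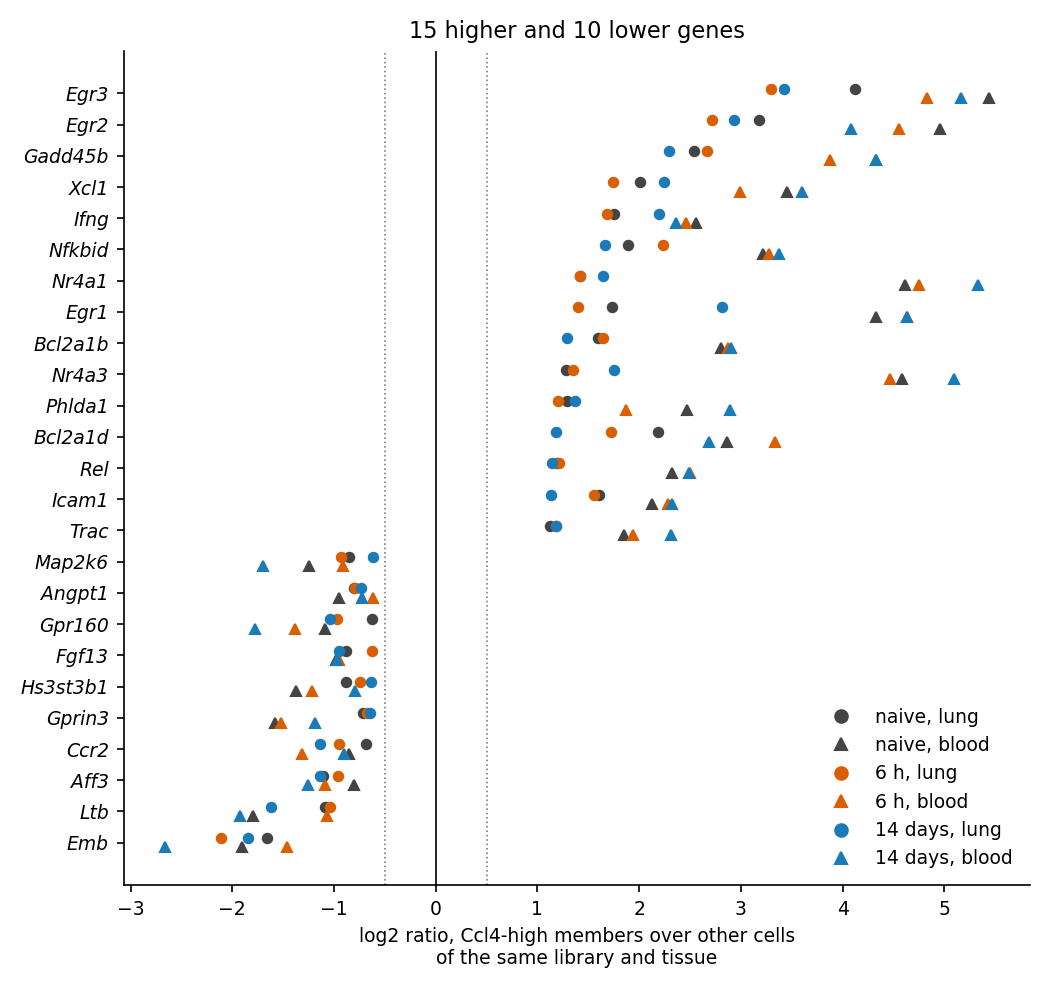
Log2 ratio of Ccl4-high over other cells (horizontal axis) for 15 higher and 10 lower called genes, 1 point for each library (grey naive, orange 6 h, blue 14 days) in lung (circles) and blood (triangles), with dotted lines at 0.5 on either side of 0. Egr3 reaches 3.29 to 5.44, Nr4a1 splits into 1.42 to 1.64 in lung and 4.61 to 5.33 in blood, and Emb lies lowest at -1.47 to -2.66.

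Among secreted factors, 3 of 9 tested genes were called higher and 1 lower, with a list median of 0.42. Xcl1 (chr1:164931644-164935527), the ligand of XCR1, stood at 844, 1357 and 3168 CPM in Ccl4-high cells of naive, 6 h and 14 days lung against 210, 404 and 669 CPM in other cells. In blood it stood at 2656, 3593 and 2571 CPM against 242, 453 and 212 CPM. Its log2 ratio was larger in blood (2.99 to 3.60) than in lung (1.75 to 2.24) in every library. A single cell supplied 565 of the 6869 Xcl1 UMIs of Ccl4-high cells in 14 days lung. Besides Ifng, the third gene was Tnfsf14 (LIGHT, a TNF family ligand), at 10.3 to 23.1 CPM in lung and 43.5 to 63.7 CPM in blood against 4.99 to 8.38 and 12.4 to 14.4 CPM.

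Ccl5, a chemokine that resting NK cells already transcribe, was not called, with ratios of 0.14 to 0.51. Ccl9 was higher in 5 of 6 combinations and lower in 14 days blood, where it rested on 12 UMIs in 4 Ccl4-high cells. Tnf, Csf2, Lta and Il10, which code for further secreted cytokines, stayed under the mean of 20 CPM and were not tested. Ltb, the membrane-bound lymphotoxin β, was the gene called lower, at 9.82 to 45.2 CPM against 20.9 to 139 CPM and ratios of -1.04 to -1.93.

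Egr3 and Egr2, both immediate early genes, had the largest ratios of the called genes, ranked by their smallest value. Both passed the filter on low values only through Ccl4-high cells, so their calls and rank are a description. Of 25 tested genes of the AP-1, EGR and NR4A list, 13 were called higher and none lower, and the list median was 1.09. Egr3 (chr14:70077203-70082614), a zinc finger factor induced by calcium signals, stood at 45.1, 32.9 and 93.2 CPM in Ccl4-high cells of lung and 218, 186 and 164 CPM in those of blood, against 2.59 to 8.65 CPM in all other cells. Ccl4-high cells, at most 11% of a tissue, held 64.7%, 53.0% and 47.3% of its UMIs in lung and 77.7%, 71.6% and 68.9% in blood. Egr1, of the same family, stood at 64.7, 46.6 and 143 CPM in lung and 399, 279 and 217 CPM in blood against 8.78 to 20.3 CPM. Egr2 had ratios of 2.71 to 4.95.

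The NR4A receptors had a higher level in the other cells of lung than in those of blood. Nr4a3 stood at 406, 387 and 313 CPM in Ccl4-high cells of lung against 167, 152 and 93.0 CPM, and in blood at 485, 449 and 304.2 CPM against 20.2, 20.4 and 8.90 CPM. Nr4a2 gave ratios of 0.63 to 1.17 in lung and 3.27 to 3.55 in blood. The AP-1 subunit genes Junb (0.54 to 1.48) and Jund (0.52 to 0.95) were called by a small margin in lung, whereas Fos (0.43 to 3.81), Fosb (-0.51 to 1.76) and Jun (-0.40 to 1.42) were not called. Jun and Fosb had ratios below 0 in 14 days lung only. The feedback genes Dusp2, Zfp36, Ppp1r15a and Csrnp1 and the growth regulator Myc were called, with ratios from 0.51 to 2.44.

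Genes of the NF-κB pathway were higher as broadly. All 20 listed genes were tested, 11 were called higher, none lower, and 19 had a ratio above 0 in all 6 combinations, as had 782 of the 6264 genes tested. The list median was 1.37. Gadd45b, a stress and survival gene, stood at 183, 302 and 179 CPM in lung and 241, 267 and 309 CPM in blood, against 31.5, 47.6 and 36.4 CPM and 12.001, 18.2 and 15.4 CPM in the other cells, without overlap. Nfkbid, an atypical nuclear inhibitor of NF-κB, stood at 108, 162 and 137 CPM in lung and 294, 322 and 282 CPM in blood against at most 43.1 CPM.

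Inhibitors, subunits and targets were each among the called genes. The inhibitors Nfkbia (1.11 to 2.47), Nfkbiz (0.92 to 2.09) and Bcl3 (0.78 to 1.87) and the subunits Rel (1.15 to 2.50) and Relb (0.64 to 2.32) were called, while Nfkb1 (0.41 to 1.57), Nfkb2 (0.44 to 2.32) and Rela (0.12 to 0.48) were not. The targets Icam1, an adhesion molecule that binds LFA-1, and Traf1, a signalling adaptor, had ratios of 1.14 to 2.32 and 0.55 to 1.63. Bcl2a1b and Bcl2a1d, which code for the survival protein A1, had ratios of 1.29 to 2.91 and 1.19 to 3.34, but their sequences are nearly identical and the split of reads between them is uncertain. Tnfaip3, the ubiquitin-editing enzyme A20, missed the call in lung with ratios of 0.45 to 0.49 and had 2.20 to 2.33 in blood.

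**Figure D4:**
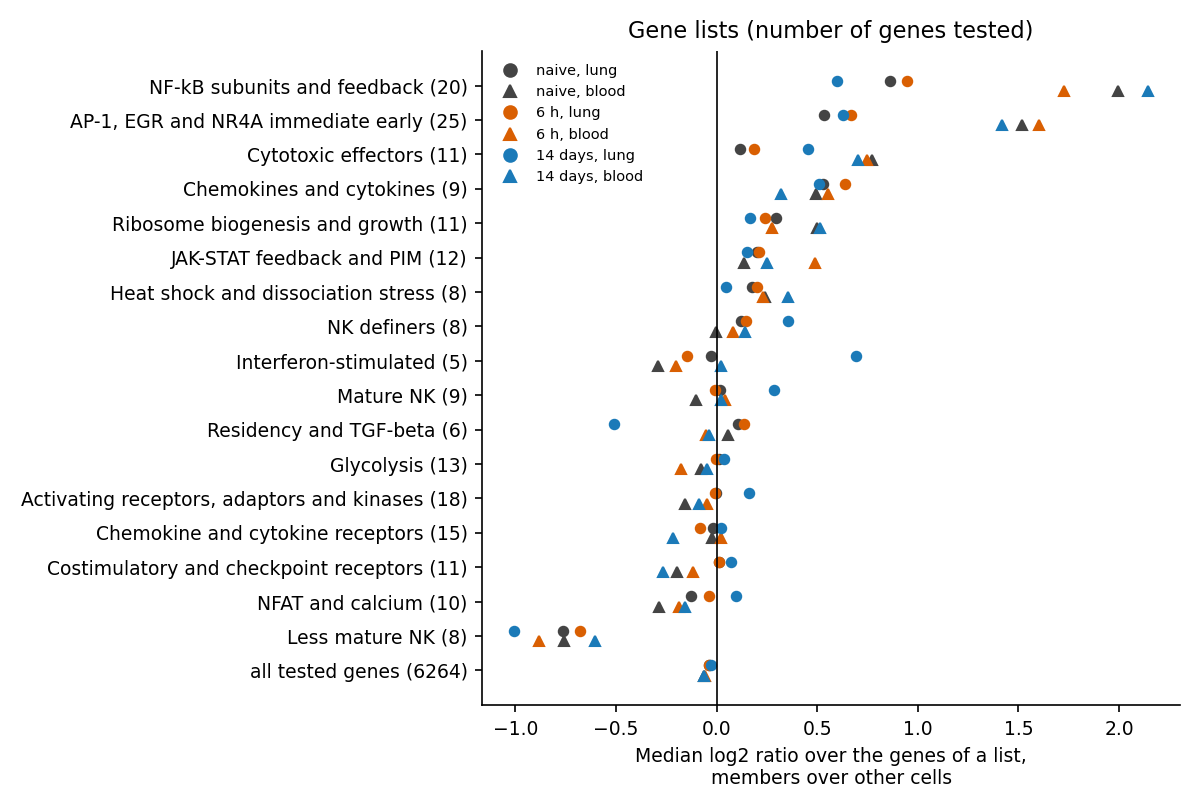
Median log2 ratio of Ccl4-high over other cells (horizontal axis) for gene lists with at least 5 tested genes, number tested in brackets, 1 point for each library (color) in lung (circles) and blood (triangles). The NF-κB and immediate early lists lie at 1.42 to 2.14 in blood and 0.54 to 0.95 in lung, and the list of less mature NK cells lies at -0.60 to -1.01.

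Lists of receptors, signal transduction and cytokine feedback, 4 in all, held 1 gene called higher and 1 called lower, beside 0.878% and 0.239% of all genes. None of 18 activating receptors, adaptors and kinases was called, and their list median was -0.06. None of 10 NFAT and calcium genes was called (median -0.10), although Orai1, the pore of the store-operated calcium channel, had ratios of 0.47 to 1.01 in lung and 1.73 to 1.86 in blood. Of 15 chemokine and cytokine receptors (median -0.08) only Ccr2 was called, and it was lower. Il12rb2, a signalling chain of the IL-12 receptor, had ratios of 0.30 to 0.68 in lung and 0.89 to 1.03 in blood. Of 12 JAK-STAT feedback genes (median 0.30), Pim1, a kinase induced by STAT5, was called, with ratios of 0.90 to 1.27.

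Of 11 costimulatory and checkpoint receptors 3 were called higher, although the list median was -0.09. Tnfrsf9 (4-1BB), a costimulatory receptor of activated lymphocytes, stood at 526, 622 and 411 CPM in lung and 580, 617 and 604 CPM in blood against 205, 294 and 164 CPM and 94.7, 151 and 95.3 CPM. Crtam, an adhesion receptor of activated lymphocytes, had ratios of 1.10 to 1.77 in lung and 2.54 to 3.07 in blood. Cd69, an early activation marker that also holds cells in tissue, had ratios of 1.09 to 1.91. Il2ra, Havcr2, Lag3 and Pdcd1 stayed under the mean of 20 CPM.

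The cytotoxic machinery differed less. Of 11 tested genes, Gzmb and Srgn were called higher, and the list median was 0.50. Gzmb, which codes for granzyme B, stood at 1680, 1880 and 2677 CPM in lung and 1529, 1766 and 2628 CPM in blood against 1006, 1166 and 1101 CPM and 811, 942 and 1297 CPM. Every level in Ccl4-high cells was above every level in other cells. Srgn, the core protein of the proteoglycan that packs granules, had ratios of 0.53 to 1.47. Prf1, which codes for perforin, had ratios of 0.38 to 0.88 and was not called.

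Lists of general cell state held no called gene. Of 11 ribosome biogenesis genes 9 had ratios above 0 in all 6 combinations, with a median of 0.33. The medians were -0.06 for 13 glycolysis genes, 0.01 for 5 interferon-stimulated genes, -0.27 for 3 cell cycle genes and -0.05 for 6 residency and TGF-β genes. In 14 days lung the interferon-stimulated list had a median of 0.70 and the residency and TGF-β list one of -0.51, while the other combinations lay at -0.29 to 0.02 and at -0.05 to 0.14. Of the 55 genes called higher, 34 stood on at least 1 list and 21 on none. Chosen from the latter after their values were seen, Kdm6b, a histone demethylase, had ratios of 0.90 to 2.67 and Rgs16, a regulator of G protein signalling, 0.86 to 4.57.

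Genes of less mature NK cells were among those lower in Ccl4-high cells. Of 8 tested genes of that list 3 were called lower, Emb, Ccr2 and Ltb, and the list median was -0.78. Emb, which codes for the membrane glycoprotein embigin, stood at 123, 99.5 and 79.3 CPM in Ccl4-high cells of lung against 388, 431 and 285 CPM, and at 19.3, 28.3 and 7.07 CPM in those of blood against 72.1, 78.1 and 44.8 CPM. Ccr2, the receptor for CCL2, stood at 88.1 to 156 CPM against 179 to 282 CPM. Cd27 itself was not called (-0.07 to -0.84). Of 9 genes of mature NK cells, Itgam and Klrg1 among them, none was called, and the median was -0.0014. The other named lower genes were Aff3 (-0.80 to -1.25), a transcription elongation factor, Gprin3, Hs3st3b1, Fgf13, Gpr160, Angpt1, which codes for angiopoietin 1, and Map2k6, a kinase that activates p38, whose ratios lay between -0.61 and -1.78.

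When maturity was read cell by cell, Ccl4-high cells occurred in every class of Cd27 and Itgam UMIs. Of cells with an Itgam UMI and no Cd27 UMI, the pattern of mature cells, 10.0% (8.82 to 11.3), 12.03% (10.8 to 13.3) and 8.70% (7.39 to 10.1) met the rule in naive, 6 h and 14 days lung. Of cells with a Cd27 UMI and no Itgam UMI, 6.25% (3.54 to 10.1), 5.91% (3.82 to 8.67) and 7.04% (4.92 to 9.70) did, and only the 6 h intervals were apart. Cells with both UMIs met the rule in 7.68% (5.49 to 10.4), 8.58% (6.75 to 10.7) and 7.13% (4.93 to 9.91). Here too only the 6 h interval was apart from that of the mature pattern. Cells with neither UMI met the rule in 11.2%, 12.7% and 7.99%, above the mature pattern in the naive and 6 h libraries. In blood the shares were 7.38%, 9.17% and 6.51% with the mature pattern and 5.71%, 7.69% and 3.55% with Cd27 alone. They were 6.23%, 6.24% and 5.01% with both UMIs and 8.94%, 10.2% and 6.90% with neither. All intervals in blood overlapped within a library. Among lung cells with an Emb UMI the share was 5.47%, 6.26% and 4.04%, against 11.6%, 13.3% and 9.97% of those without. Within cells with an Itgam UMI and no Cd27 UMI alone, 43 of the 55 genes called higher and 4 of the 15 called lower were called again. In 14 days lung, 605 cells held UMIs of both Itga1 and Pmepa1, genes of tissue residency and of the response to TGF-β, and 2.64% of them (1.52 to 4.26) met the rule.

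The contrast was larger in blood than in lung. Of the 55 genes called higher, 50 had a larger ratio in blood in all 3 libraries, as had 1991 of the 6264 genes tested by the size of the ratio. Ccl4 itself was further past the cut in Ccl4-high cells of blood, at 12867 to 14340 CPM against 6714 to 8504 CPM in lung. The part of this in the larger contrast was not tested. For the immediate early list, the level in other cells of lung over those of blood had a median log2 ratio of 1.51, 1.90 and 1.22 in the naive, 6 h and 14 days libraries, and in Ccl4-high cells 0.34, 0.91 and 0.79. For the NF-κB list the medians were 0.53, 0.77 and 0.80 in other cells and -0.27, -0.03 and -0.23 in Ccl4-high cells. For these lists the other cells of the tissues thus lay further apart than the Ccl4-high cells did. The heat shock and dissociation stress list, with Hsp90ab1 the most abundant, summed to 3190, 3911 and 3040 CPM in Ccl4-high cells of lung against 2770, 3345 and 2826 CPM in others. In blood it summed to 3107, 3565 and 3168 CPM against 2510, 2976 and 2387 CPM. None of its 8 tested genes was called, its median was 0.19, and its part in these contrasts was not tested.

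Along the Ccl4 scale the response genes were higher toward the top. Over the 36 steps between neighbouring bins of the 6 combinations, Ifng, Xcl1 and Nr4a1 each went up in 34 and Gadd45b in 32, and whether the steps were larger at the cut was not tested. The bins were cut on Ccl4, which also chose the cells. These genes, and Emb below, were already called between Ccl4-high and other cells, so a trend follows in part by construction. The steps were not counted over all genes, and the counts are a description. In naive lung, Ifng stood at 75.7 CPM in cells without a Ccl4 UMI, 116 CPM at 2000 to 3000, 205 CPM at 3000 to 6000, 354 CPM at 6000 to 12000 and 726 CPM over 12000 CPM. In naive blood the same bins held 47.5, 116, 182, 305 and 527 CPM. Nr4a1 in naive blood went from 8.15 CPM in cells without a Ccl4 UMI over 78.9 CPM at 2000 to 3000 to 744 CPM over 12000. Emb went down in 29 of 36 steps, in naive lung from 556 to 46.5 CPM between the ends of the scale. In 14 days lung it went up across the cut, from 62.6 CPM at 2000 to 3000 to 141 CPM at 3000 to 6000. Ifng went down across the cut in 14 days blood, with 103 CPM at 2000 to 3000 and 67.3 CPM at 3000 to 6000, a bin of 53 cells.

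**Figure D5:**
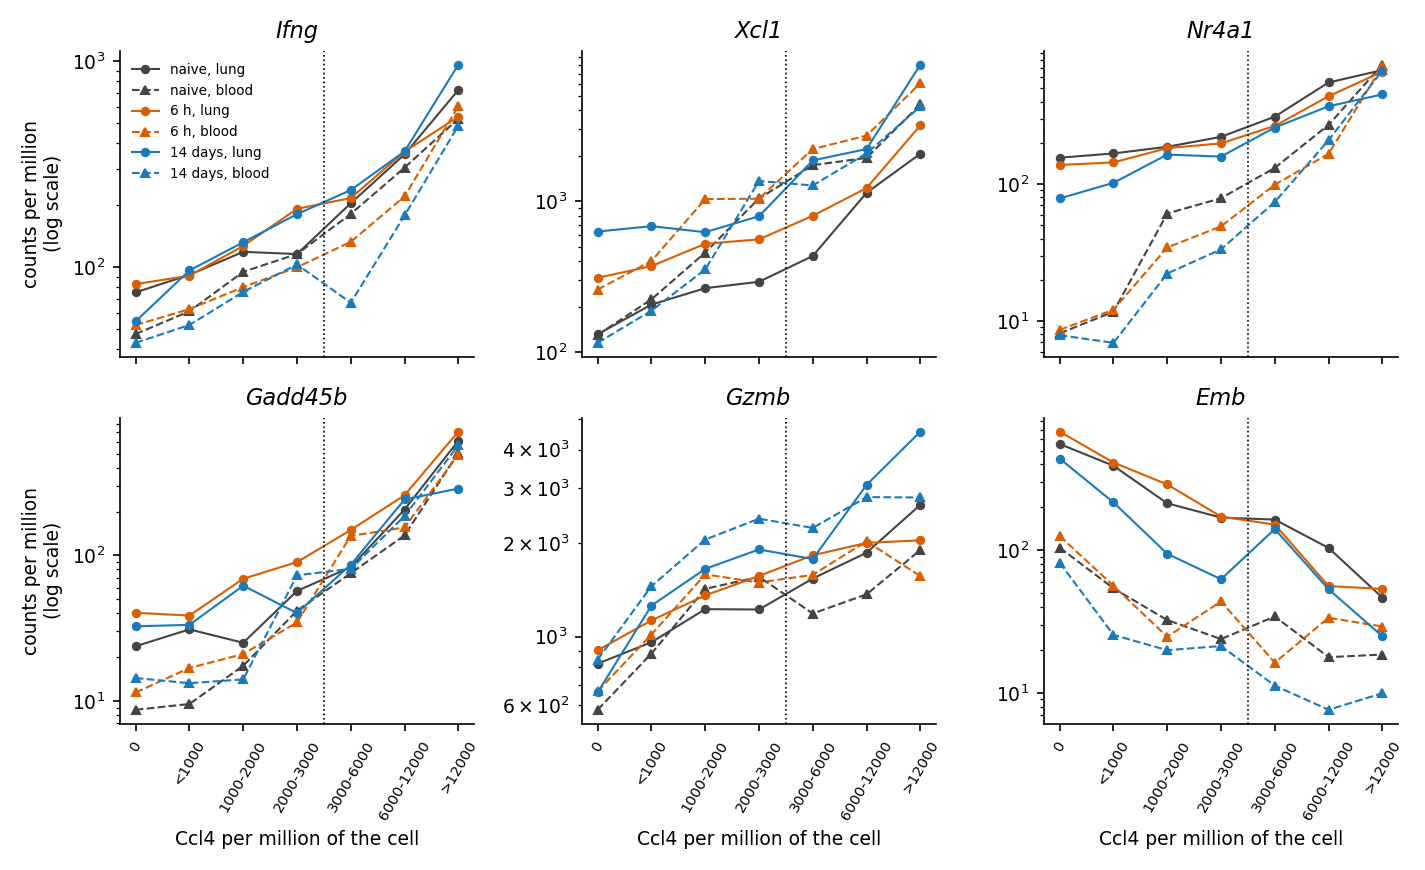
Level of 6 genes in CPM (vertical log axis) in kept cells grouped by their Ccl4 in CPM of the cell (horizontal axis), for each library (color) in lung (circles, solid) and blood (triangles, dashed), with a dotted line at the cut of 3000. Ifng, Xcl1, Nr4a1 and Gadd45b are higher over 12000 than in cells without Ccl4 in every line, Nr4a1 starts at 7.90 to 8.64 CPM in blood and 78.7 to 156 CPM in lung, and Emb is lower at the top.

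The values just outside and just inside the cut, pooled over libraries, are given as a description. Levels differed between libraries, and the mix of libraries on either side of the cut was not compared. In lung, 184 cells at 2500 to 3000 were set beside 158 Ccl4-high cells at 3000 to 3500. Ifng stood at 214 and 252 CPM, Nr4a1 at 220 and 327 CPM and Xcl1 at 625 and 1177 CPM. These 184 were only a part of the lung cells at 2500 to 3000, with Ccl3 at 555 CPM against 809 CPM inside the cut. In blood, 60 and 65 cells were set side by side in the same way, with Ifng at 101 and 143 CPM, Nr4a1 at 87.4 and 96.3 CPM and Xcl1 at 1189 and 1011 CPM.

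Ifng and Nr4a1 were found in the same single cells about as often as, or somewhat more often than, the product of their separate shares gives. UMIs of Ifng and Nr4a1 were both present in 38.2%, 45.6% and 42.9% of Ccl4-high cells of naive, 6 h and 14 days lung and in 39.2%, 33.3% and 32.5% of those of blood. The products of the separate shares were 35.5%, 41.9% and 42.7% in lung and 33.9%, 29.2% and 24.98% in blood. Among other cells both were present in 16.7%, 19.0% and 12.9% in lung and 3.11%, 3.11% and 2.01% in blood, with products of 15.1%, 16.9% and 10.7% and of 2.04%, 2.66% and 1.67%. Cells also differ in depth, whose part in these shares was not tested. No cell type that lacks these genes had been sorted, so the share that free RNA alone gives could not be measured. Neither transcript was found in 12.1% to 32.5% of Ccl4-high cells.

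To set cells of unequal depth side by side, cells were thinned to 3000 UMIs and the detected genes among Ifng, Nr4a1, Xcl1, Egr3, Gadd45b and Nfkbid were counted, a set chosen after its values were seen. Cells with fewer UMIs were left out, 0 to 6 Ccl4-high and 6 to 80 other cells per library and tissue. Ccl4-high cells held on average 1.81, 2.08 and 2.00 of the 6 in lung and 2.57, 2.42 and 2.41 in blood, against 0.889, 1.01 and 0.902 and 0.556, 0.690 and 0.506 in other cells. At least 3 were found in 27.4%, 35.5% and 31.5% of Ccl4-high cells of lung and 48.9%, 44.8% and 48.4% of those of blood, against 1.45% to 7.32% of other cells. None was found in 7.99% to 18.0% of Ccl4-high cells.

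Ccl4-high cells that also held an Ifng UMI had more Ccl3 in every library and tissue. In lung their Ccl3 level was 1643, 1459 and 2575 CPM against 785, 835 and 1307 CPM in Ccl4-high cells without an Ifng UMI, and in blood it was 2918, 2640 and 3162 CPM against 1455, 1302 and 1195 CPM. Xcl1 in lung stood at 1214, 1608 and 4216 CPM with and 459, 917 and 1230 CPM without an Ifng UMI. In 14 days blood the order was the opposite, at 2224 against 2930 CPM. Gzmb was lower with an Ifng UMI in both tissues of the naive and 6 h libraries, for example 1308 against 1837 CPM in naive blood. In both tissues at 14 days it was higher. Tnfrsf9 was lower in naive and 14 days blood, at 438 and 433 against 778 and 782 CPM, and higher in the other combinations. The cells with an Ifng UMI had the higher median UMI count in 5 of 6 combinations, for example 6989 against 6236.5 in 6 h lung, and the part of depth was not tested.

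Depth and mitochondrial share of Ccl4-high cells were close to those of other cells. Their median UMI count was 5743.5, 6728 and 7115 in lung and 6394.5, 7365 and 7134.5 in blood, against 5935, 7051 and 6986 and 6350, 7475 and 7563 in other cells. Median mitochondrial percentages were 2.60 to 3.12 against 2.87 to 3.31. Barcodes that carried both hashtags, which were left out, had median UMI counts of 11721.5, 14811 and 15333.

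Defining markers of NK cells were present, and those of macrophages and neutrophils were near 0. The 8 NK genes summed to 20263 to 25329 CPM in Ccl4-high cells and 15140 to 22847 CPM in other cells, and none was called. Ncr1, which codes for the sorted NKp46, stood at 817 to 1539 CPM in Ccl4-high cells. Of 8 T cell markers, Cd4 and Cd8a had no count in Ccl4-high cells and Cd3e had UMIs in at most 0.346% of them in any library and tissue. A UMI of Cd3d, Cd3e or Cd3g was found in 89 of the 1836 Ccl4-high cells, among them 15 of 126 in 14 days blood. The list summed to 435 to 572 CPM in Ccl4-high and 482 to 585 CPM in other cells, most of it Trbc1 and Trbc2, which NK cells are known to transcribe.

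Trac, the constant segment of the T cell receptor α chain, was called higher, at 25.4, 25.1 and 40.6 CPM in lung and 35.0, 43.8 and 48.5 CPM in blood against 9.69 to 17.9 CPM. Of the 343 Ccl4-high cells with a Trac UMI, 342 (99.7%) held an Ncr1 UMI, 19 held a UMI of Cd3d, Cd3e or Cd3g, and none held Cd3e. An Ncr1 UMI was found in 94.8% to 100% of all Ccl4-high cells and 93.3% to 99.7% of other cells. The Ncr1 share among cells with Trac was thus near that of all cells. Of all 1836 Ccl4-high cells, 89 held a UMI of Cd3d, Cd3e or Cd3g. The 10 markers of macrophages, monocytes and dendritic cells summed to 2.23 to 6.46 CPM in Ccl4-high cells, with Cd68 the most abundant and 4 genes at 0, and to 5.12 to 101 CPM in other cells. Neutrophil markers summed to at most 1.66 CPM in Ccl4-high cells and to 0.37 to 28.2 CPM in other cells. Markers of ILC1, the tissue-resident relatives of NK cells, summed to 10.3 to 25.8 CPM against 27.4 to 75.2 CPM, with Il7r the most abundant. B cell markers, mostly Ighm, summed to 27.2 to 36.4 CPM against 36.5 to 58.2 CPM. Endothelial, epithelial and platelet markers summed to 61.2 to 79.8 CPM against 47.5 to 87.2 CPM, nearly all of it Pecam1, which NK cells also express. The part of these markers in the contrast was not tested.

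Between conditions, Ccl4-high cells were compared with those of the naive library of the same tissue, and a gene was called when its log2 ratio was at least 1 in size with an interval clear of 0. A gene could pass the filter on low values through its level in either condition alone. In 6 h lung 5 genes were called higher (0.0814% of 6140) and 6 lower (0.0977%). The higher genes were Gadd45g (1.48), a stress gene, Serpina3g (1.46), a serine protease inhibitor, Pmepa1 (1.19), a TGF-β target, Nr6a1 (1.13), a nuclear receptor, and Cish (1.13), a STAT5 target. Gadd45g, Pmepa1, Nr6a1 and Cish held 28, 35, 30 and 29 UMIs in naive Ccl4-high cells of lung. They passed the filter on low values only through their 6 h level, so their calls are a description. Serpina3g stood at 53.1 CPM in naive and 146 CPM in 6 h Ccl4-high cells of lung, and at 51.2 and 115 CPM in other cells. Gadd45g stood at 12.5 and 34.8 CPM in Ccl4-high cells and at 12.3 and 15.5 CPM in other cells, and its 129 UMIs at 6 h came from 68 cells. The lowest ratios were those of Frmd5 (-1.16), Nfia (-1.05), Slc35d1 (-1.05), Zfp64 (-1.04) and Klra5 (-1.03), and in other cells the ratios of Frmd5, Nfia, Slc35d1, Zfp64 and Klra5 were -0.22, -0.46, -0.18, -0.46 and -0.08. Slc35d1, Zfp64 and Klra5 stood at 15.9, 19.1 and 17.5 CPM in 6 h Ccl4-high cells. They passed the filter on low values only through their naive level, so their calls are a description. Klra5 rested on 80 UMIs in 14 naive Ccl4-high cells and 65 UMIs in 13 such cells at 6 h. Frmd5 was found in 6.18% of naive and 5.44% of 6 h Ccl4-high cells.

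In 6 h blood 11 genes were called higher and 11 lower (0.178% of 6195 each). The higher ones included the cytokine feedback genes Socs1 (30.5 CPM in naive and 65.9 CPM in 6 h blood) and Pim2 (30.5 and 65.4 CPM) and the interferon-stimulated gene Isg15 (18.4 and 41.0 CPM). Isg15 passed the filter on low values only through its 6 h level, so its call is a description. In other cells of blood the log2 ratios of Socs1, Pim2 and Isg15 were 0.67, 0.86 and 0.40. Fos was among the lower genes, at 91.0 CPM in naive and 36.6 CPM in 6 h Ccl4-high cells of blood. It was called lower in 14 days blood as well, at 17.2 CPM, where its 17 UMIs came from 10 of 126 cells.

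The 14 days lung had the most called genes. There 68 genes were called higher (1.12% of 6066) and 138 lower (2.27%). Under the same rule 68 and 107 were called in the other cells, and 43 of the higher and 57 of the lower genes were called in both. The 5 largest ratios belonged to Ccl1, Isg20, Ifi204, Plac8 and Cxcl10, which had at most 9 UMIs in naive Ccl4-high cells and passed the filter on low values only through their 14 days level. Isg20, a ribonuclease gene induced by interferon, had 2 UMIs in naive and 113 UMIs in 14 days Ccl4-high cells of lung, the latter in 42 cells, for a log2 ratio of 5.87 (3.98 to 8.93), against 4.10 in other cells. Ifi204, a DNA sensor gene, had 2 and 104 UMIs, the latter in 29 cells, and a ratio of 5.75 (3.86 to 8.81).

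The others of these ratios rested more on single cells. Ccl1, a chemokine that binds CCR8, had no UMI in naive and 317 UMIs in 14 days Ccl4-high cells of lung, all from 4 cells and 241 from 1 of them. Plac8 had 9 and 312 UMIs, the latter in 29 cells (10.0% of Ccl4-high cells), while 15.2% of other cells held it. Cxcl10, a chemokine induced by interferon-γ, had 7 and 142 UMIs, 68 of them in 1 cell.

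All 14 listed interferon-stimulated genes, whatever their level, stood higher in 14 days than in naive lung, both in Ccl4-high cells and in other cells, as did 3090 of the 13878 genes with a count in Ccl4-high cells (22.3%). Of the 14 listed genes, 8 passed the filter on low values and 6 were called, but some passed only through their 14 days level (5 passed in 6 h lung), so that count is not read further. Isg15 stood at 29.9 CPM in naive and 126 CPM in 14 days Ccl4-high cells (ratio 2.08) and at 21.9 and 49.3 CPM in other cells (1.17). Usp18, which removes ISG15 from proteins, stood at 16.5 and 69.2 CPM (2.07) and in other cells at 19.4 and 38.4 CPM (0.99). The difference between the Isg15 ratios of Ccl4-high and other cells was 0.91 (0.50 to 1.33), and none is read for Usp18. The Isg15 UMIs came from 61 Ccl4-high cells, and 1 cell held 33 of 274.

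Among the signalling lists in 14 days lung, 5 of 26 immediate early genes were called higher and 1 lower (median 0.07). Of 12 JAK-STAT feedback genes 3 were called higher (median -0.02), and of 20 NF-κB genes none was called (median -0.12). Of all genes tested there, 1.12% were called higher and 2.27% lower. At least 1 of the 26 immediate early genes passed the filter on low values through its 14 days level, since 25 passed in 6 h lung. Of 15 chemokine and cytokine receptors 3 were called lower (median -0.46). Socs3, a feedback inhibitor of cytokine receptors, stood at 21.0 and 48.0 CPM in naive and 14 days Ccl4-high cells, a ratio of 1.19, while other cells had -0.31. Egr1 stood at 64.7 and 143 CPM, a ratio of 1.14 against 0.06 in other cells. Il12rb2 was lower in both, with 1681 and 717 CPM in Ccl4-high cells and ratios of -1.23 and -1.61. Of the residency and TGF-β list, Pmepa1 stood at 15.6 and 92.7 CPM (2.57, against 3.06 in other cells) and Itga1, an integrin chain of resident cells, at 13.8 and 29.1 CPM (1.07, against 2.35 in other cells). Both were under 20 CPM in naive Ccl4-high cells and passed the filter on low values only through their 14 days level. The 5 lowest ratios belonged to Dock4 (-2.11), Tmtc1 (-2.10), Cnnm2 (-1.93), Plxnc1 (-1.89) and Frmd5 (-1.85). Dock4, Tmtc1, Plxnc1 and Frmd5 stood at 14.3, 15.7, 11.5 and 17.5 CPM in 14 days Ccl4-high cells. They passed the filter on low values only through their naive level, so their calls are a description. Frmd5 rested there on 38 UMIs in 11 cells. In other cells of lung the ratios of Dock4, Tmtc1, Cnnm2, Plxnc1 and Frmd5 were -2.12, -2.13, -2.34, -1.70 and -0.38.

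In 14 days blood 19 genes were called higher (0.31% of 6131) and 107 lower (1.75%), against 3 and 4 in other cells, whose sums hold more counts. Pim2 (1.21) and Socs1 (1.09) were again among the higher. Spp1, which codes for osteopontin and was chosen after its values were seen, had a ratio of 2.12, but 60 of its 106 UMIs came from 1 cell. Medians over all genes tested were -0.20 in 14 days lung and -0.15 in 14 days blood for Ccl4-high cells, and -0.22 and -0.17 for other cells.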

How the data were processed

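Counts of UMIs per gene and hashtag were deposited by the authors for 3 libraries as unfiltered matrices of 1743618, 1796296 and 1388825 barcodes, made with Cell Ranger (7.1.0 per the file headers) on GRCm38.p6. Barcodes with 800 to 5000 detected genes, at most 6% mitochondrial counts and 1 hashtag at 90% or more of tag counts were kept, which left 21113. Hashtags were assigned to tissues in the order in which the study's methods name them. Barcodes with both hashtags (342, 158 and 134) were left out, while doublets within a tissue remain. Counts were summed over cells and scaled to CPM in Python 3.11.15 (numpy 2.4.6, scipy 1.17.1, pandas 2.3.3, matplotlib 3.10.9). Log2 ratios carry exact conditional binomial intervals, shares Clopper-Pearson and ratios of shares log-normal intervals, which cover counting error only. Scripts were tested on simulated data. The 15 highest and 10 lowest called genes by their smallest ratio, the 5 highest and 5 lowest per condition in lung, list members and the 4 markers were named. Cells, gene lists and rules were chosen with earlier results of these data known. Alternatives changed the cut, filters, depth, scaling and cells compared. Promoter windows are from RefSeq and positions from GENCODE, both on GRCm38.p6.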

Additional observations from a re-analysis of the deposited data

Results flagged for a closer look

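Barcodes with both hashtags, which no comparison used, also held Ccl4-high profiles. They met the rule in 12.7% of 158 barcodes at 6 h (7.91 to 18.9) and in 7.46% of 134 at 14 days (3.64 to 13.3), beside 4.68% of 342 in the naive library (2.70 to 7.49). The 6 h and 14 days shares stood above that of the naive library, their median UMI counts were 11721.5 to 15333, and the part of depth was not tested.

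Among 194 listed genes tested, 4 (2.06%) had ratios of Ccl4-high over other cells above 0 in every lung library and below 0 in every blood library. The mean ratio in lung minus that in blood was 0.46 for Klf2, 0.24 for Klf6, 0.405 for Nfatc3 and 0.23 for Stat4. For Klf2 the lung ratios were 0.0035, 0.06 and 0.29 and the blood ratios -0.42, -0.33 and -0.28. All 3 lung intervals of Stat4 and all 3 blood intervals of Klf6 included 0. These differences were not tested, and 151 of 6264 genes (2.41%) had opposite signs in either direction, so the share among listed genes was near that of all genes.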

How the results depend on the processing

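No paired analysis was possible between conditions because each has 1 library. Lung and blood cells were compared within their library, and no test over these 3 pairs, which differ in condition, was run. Of 60 shares 29 moved beyond their counting interval, mostly with the cut or the Ccl3 condition, and the settings gave 5.55% to 13.5% of naive, 6.47% to 14.3% of 6 h and 4.64% to 11.3% of 14 days lung cells. Of 70 log2 ratios of shares, 64 moved by less than their counting interval. The lung excess did not hold at Ccl4 of 5000 CPM or more (-0.039 in the naive library, the opposite sign, 0.023 at 6 h and 0.062 at 14 days), was larger without the Ccl3 condition (0.71 naive, 0.63 at 6 h) and smaller with at least 2 Ccl3 counts (0.20 naive). Over all settings the share ratio lay between 0.08 and 0.26 for 6 h over naive in lung and between -0.42 and -0.11 for 14 days. The count of genes higher was 55 and became 22 at a log2 ratio of at least 1 and 218 in blood only. The count of genes lower was 15 and became 28 at Ccl4 of 5000, 26 without mitochondrial and ribosomal protein genes, 56 without the filter on low values, 8 at a mean of 50 CPM, 2 at a log2 ratio of at least 1, 29, 28 and 27 without the naive, 6 h or 14 days library, 23 in lung only and 193 in blood only. With 2 settings chosen after seeing the data it was 4 (cells with an Itgam UMI and no Cd27 UMI) and 39 (other cells with no Ccl4 UMI). Fewer combinations to satisfy give more calls by construction, and the cause of the other shifts was not tested. The genes called changed as well. At Ccl4 of 2000 CPM, without the Ccl3 condition and with cells thinned to 3000 UMIs, 9 of the 15 lower genes were called again each time. Of the 55 higher genes 40, 43 and 46 were called again. At Ccl4 of 5000 CPM 11 of the 15 and 54 of the 55 were. Between conditions, a mean of 50 CPM left 1 higher and 1 lower gene in 6 h lung, 29 and 61 in 14 days lung, 0 and 1 in 6 h blood and 2 and 26 in 14 days blood. Without mitochondrial and ribosomal protein genes the lower genes at 14 days were 88 in lung and 70 in blood. Of 250 ratios of named genes 242 moved by less than the spread over the 6 combinations, and none changed sign. Of 210 list medians 201 moved by less than that spread, and medians near 0, such as those of the mature NK and interferon-stimulated lists, changed sign under some settings.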
